A study of Homo sapiens with 13 samples.

Results

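The genes described here are 36 splicing regulators: the heterogeneous nuclear ribonucleoproteins (hnRNPs) with their close relatives, and 8 other RNA-binding regulators, among them TARDBP, ELAVL1, RBFOX2, CELF1, TIA1, TIAL1, QKI and MBNL1. They were chosen by gene symbol, and all 36 were found among the 58581 genes of the count table. Of the 8100 windows of SRSF2 binding listed for HITS-CLIP, 142 lay in 19 of them. HITS-CLIP recovers and sequences the RNA that ultraviolet light has crosslinked to a protein, here SRSF2 pulled down through a Flag tag from HEL cells, a human erythroleukemia line that stably carries SRSF2 under doxycycline control. The protein was either P95H, a substitution recurrent in myelodysplastic syndromes, or wild type (WT), with 4 samples each after 36 hours of doxycycline at 1 µg/ml. RNA depleted of rRNA was sequenced from 2 P95H and 2 WT samples after 48 hours at the same dose, and from 1 P95H sample labelled uninduced. All samples were grown in the same medium and carried an SRSF2 construct in addition to the cells' own gene, so no library is from unmodified cells. The numbered samples are biological replicates by their labels, but neither separate cultures nor the number of clones per line is described, so the p-values measure the spread between these samples.

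SRSF2 is an SR protein that promotes exon inclusion by binding exonic sequences, and many hnRNPs act in the opposite sense by occupying exons or the flanking introns. Transcripts of both families are known for regulating themselves and each other through exons whose inclusion or skipping leads to nonsense-mediated decay, which makes binding of one splicing factor to the RNA of another a question of its own. SRSF2 recognises short motifs of the forms CCNG and GGNG, and P95H is known to bind CCNG better and GGNG less well than WT does.

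Bases could be set beside binding in 1 of these genes, HNRNPM (chr19:8444767-8489114, plus strand, GRCh38), which encodes an hnRNP that regulates alternative exons, among others in epithelial-mesenchymal transition. At its 5′ end, 3 protein-coding windows in the authors' deposited table had log2 changes of -4.69, -4.69 and -4.75 (P95H over WT). Their means and standard errors there were 2.42 ± 2.3, 2.42 ± 2.3 and 2.49 ± 2.24 CPM in WT and 0.07 ± 0.07 CPM in P95H. The WT errors were thus 0.9 to 0.95 of the mean, as happens when 1 of 4 samples holds nearly all of the reads. The 3 windows cover 25 bases at chr19:8444992-8445016 on the plus strand, bases 18 to 42 after the start of the gene in RefSeq (GRCh38.p14). Window ends were read as 1-based and inclusive, a convention that the file does not state. The stretch is printed 5′ to 3′, as the member site that could be read from the promoter sequences, with capitals for every GGNG match.
HNRNPM: GGAGaaaatGGCGgcaGGGGtcgaa
It holds 3 GGNG matches, GGAG, GGCG and GGGG, and 0 CCNG matches, searched as written on this strand, where matches to the same motif may overlap. Letters of this kind are common there: over bases 18 to 42 of 35116 RefSeq promoter entries, 48.2% hold GGNG and 44.8% hold CCNG. Among the 116 windows of the whole table that lie inside such an entry, GGNG was found in 50.7% of the 75 that were lower in P95H and in 51.2% of the 41 that were higher, and CCNG in 33.3% of the lower and 19.5% of the higher ones. The strand of the reads is uncertain at this place, and the opposite strand was not searched for either motif. The matches above therefore apply only if the reads came from the plus strand, and the motif in the bound RNA stays undecided. In the authors' deposited table the nearest window on the opposite strand, annotated to RP11-886P16.10, had 0.07 CPM in P95H and 2.40 CPM in WT, and an HNRNPM window had 0.07 CPM in P95H and 2.42 CPM in WT. Of 217 window pairs that start within 2 bases of each other on opposite strands, 47 had near-equal means in both genotypes (within 5% or 0.01 CPM), and 6 of these 47 are at this end of HNRNPM.

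The RNA-seq libraries held 37414093 to 45005605 counts, so that 3 counts correspond to 0.0667 to 0.0802 CPM. The share of counts from mitochondrially encoded protein genes was 1.38% in replicate 1 of both genotypes, 4.30% in P95H replicate 2, 4.50% in WT replicate 2 and 4.14% in the library labelled uninduced. RNA-seq results are therefore given both on group alone and with the replicate number as a batch term. SRSF2 itself had 223.1 and 252 CPM in P95H, 222.2 and 241.4 CPM in WT and 285 CPM in the library labelled uninduced. Each library given doxycycline thus lay below the last, with a log2 change of -0.26 in P95H against it on group alone. These counts show no rise of SRSF2 with doxycycline, and counts per gene do not separate construct from endogenous SRSF2. Erythroid and megakaryocytic genes such as TAL1, GATA1 and ITGA2B were present in all 5 libraries, while EPCAM had 0 counts, CD3E 0 or 1 and MS4A1 0 or 1, as background for an erythroleukemia line. KRT18, an epithelial keratin, was nevertheless counted 978 to 1493 times.

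On the transcripts of these genes P95H crosslinked less than WT at most changed sites. Of the 142 member windows in the authors' deposited table, 122 (85.9%, exact binomial interval 79.1 to 91.2%) were lower in P95H and 20 were higher, beside 77.7% lower and 22.3% higher over all 8100 windows. Windows overlap one another, so they are not independent measurements. The interval treats them as independent and is therefore too narrow, so it does not set the members apart from the table. Merged where they overlapped with the same direction and strand, they gave 65 regions, 50 of them (76.9%) lower in P95H, against 66.1% of 3742 regions in the whole table. Without HNRNPM, which has the most windows, 82.3% of the remaining 113 windows were lower. The median log2 change in the authors' deposited table was -1.46 for the members and -1.62 for all windows. The table lists a window only at an adjusted p up to 0.05 and a 2-fold or larger change, so direction can be read from these counts and the frequency of change cannot.

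The windows were unevenly spread over the genes. Of the 19 genes, 10 had only lower windows, 2 (HNRNPH1 and PCBP2) had only higher ones and 7 had both. HNRNPM, HNRNPA1, HNRNPA2B1, HNRNPH3 and RALY together held 90 of the 142, where the median gene of the table has 2. Many of these windows overlap: merged, the 5 genes had 7, 14, 8, 2 and 2 regions in that order. The other 17 members, including HNRNPF, HNRNPR, SYNCRIP, TARDBP and all of PTBP1, PTBP2 and PTBP3, had none, which says only that no window of theirs passed the authors' thresholds.

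**Figure D1:**
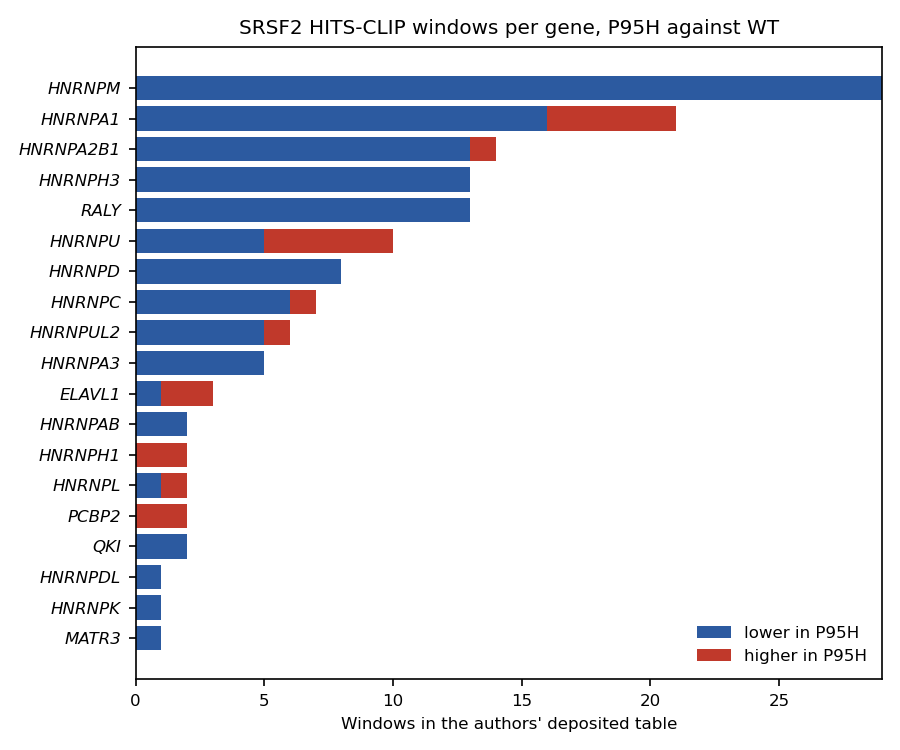
Number of windows in the authors' deposited table (horizontal axis) for each of the 19 genes that had any, split into windows lower in P95H than WT and windows higher in P95H. HNRNPM has 29 windows, all lower, and HNRNPU has 5 in each direction.

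HNRNPM stood out among the members by number of windows and by level, but not by number of regions. It had 7 regions, where HNRNPA1 had 14 and HNRNPA2B1 8. The 29 windows of HNRNPM were all lower in P95H in the authors' deposited table. Their median log2 change there was -2.08, with a range of -6.25 to -1.22. Only 29 genes (1.22% of 2381) have at least as many windows, a rank that counts overlapping windows singly. The highest window lay 18725 bases from the 5′ end, where the authors' deposited table gives 13.44 ± 7.31 CPM in P95H and 36.81 ± 26.0 CPM in WT (mean ± standard error, 4 samples per genotype), a log2 change of -1.47 with an adjusted p of 0.00307. The WT mean there was the highest of any member window, and its error was 0.706 of the mean. Further along the gene, in a transcript annotated for nonsense-mediated decay, the authors' deposited table lists 2 overlapping windows at 0.00 CPM in P95H and 0.56 ± 0.50 CPM in WT.

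In the A/B-type hnRNPs, which carry paired RNA recognition motifs and mostly repress exons, 45 of 51 windows were lower. HNRNPA1 (chr12:54280193-54287088, plus strand, GRCh38), the best studied exon repressor of the family, had 21 windows, 16 lower and 5 higher. Its strongest site, 1289 bases from the 5′ end, had 5.05 ± 3.66 CPM in P95H and 13.11 ± 4.65 CPM in WT in the authors' deposited table (log2 -1.34, adjusted p 0.00656). A window 2419 bases from the 5′ end went the other way, at 1.12 ± 1.06 CPM in P95H and 0.06 ± 0.06 CPM in WT (log2 3.56, adjusted p 3.11e-06) in the authors' deposited table. Higher and lower HNRNPA1 windows alternated along the same few kilobases. HNRNPA1 has many processed copies in the genome, and 15 of its 21 windows had a near-equal counterpart (within 5% or 0.01 CPM in both genotypes) in one of them, so reads from the gene and from its copies cannot be told apart there.

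HNRNPA2B1, a relative of HNRNPA1 that also takes part in RNA transport, had 13 lower windows of 14. The highest reached 3.73 ± 2.43 CPM in P95H and 10.95 ± 7.35 CPM in WT in the authors' deposited table (log2 -1.65, adjusted p 0.00206). HNRNPD, known as AUF1 for its binding of AU-rich elements in unstable mRNAs, had 8 windows, all lower. One of them, 612 bases from the 5′ end, held the largest fall of any member in the authors' deposited table, at log2 -7.58 (adjusted p 2.78e-11), with 0.00 CPM in P95H and 1.98 ± 1.95 CPM in WT. The error in WT there nearly equals the mean, as it does when 1 sample of 4 carries almost all of the signal. HNRNPAB also had a window at 0.00 CPM in P95H, 72 bases from its 5′ end, with 1.57 ± 0.99 CPM in WT (log2 -7.36, adjusted p 2.31e-10) in the authors' deposited table. Its error in WT was smaller beside the mean, at 0.631 of it. The fold changes of such windows rest on a P95H level listed at 0 and depend on how the authors treated zeros. HNRNPA3 had 5 lower windows and HNRNPDL 1.

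The C-type proteins bind uridine tracts, and HNRNPC keeps cryptic exons out of mRNA by doing so. HNRNPC had 6 lower windows and 1 higher. Its highest window had 4.27 ± 1.84 CPM in P95H and 11.27 ± 3.85 CPM in WT in the authors' deposited table (log2 -1.45, adjusted p 0.00572), 58048 bases from the 5′ end and near the 3′ end of the gene. The single higher window, upstream of it, had the largest rise of any member in the authors' deposited table, at log2 4.42 (adjusted p 3.19e-06), with 0.99 ± 0.95 CPM in P95H and 0.05 ± 0.03 CPM in WT. Here too 1 sample could carry the P95H signal. HNRNPC shares sequence with the copy HNRNPCP2, and 5 of its 7 windows had a near-equal counterpart there. RALY, the closest relative of HNRNPC, had 13 windows, all lower, 12 of them in a single region, and 8 were annotated to a retained-intron transcript. The highest had 4.37 ± 3.89 CPM in P95H and 9.93 ± 3.73 CPM in WT in the authors' deposited table (log2 -1.13, adjusted p 0.0221).

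The F/H-type proteins bind runs of G. HNRNPH3 had 13 windows, all lower, and 12 of them formed 1 region in which the highest window reached 11.62 ± 5.32 CPM in P95H and 24.45 ± 13.98 CPM in WT in the authors' deposited table (log2 -1.09, adjusted p 0.0305). HNRNPH1 differed in direction: both of its windows were higher in P95H, the larger at 1.61 ± 1.17 CPM in P95H and 0.14 ± 0.07 CPM in WT (log2 2.90, adjusted p 1.69e-05) in the authors' deposited table. Among the KH-domain proteins that bind C-rich RNA, PCBP2 likewise had only higher windows, an overlapping pair in a transcript annotated for nonsense-mediated decay, at 1.05 ± 0.61 CPM in P95H and 0.25 ± 0.25 CPM in WT (log2 1.68, adjusted p 0.00543) in the authors' deposited table. HNRNPK had a single lower window, with 0.02 ± 0.02 CPM in P95H and 1.57 ± 0.83 CPM in WT (log2 -5.04) in the authors' deposited table. HNRNPL, which binds CA repeats, had 1 window in each direction, and its lower one has the same means as a window of the copy HNRNPLP2.

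**Figure D2:**
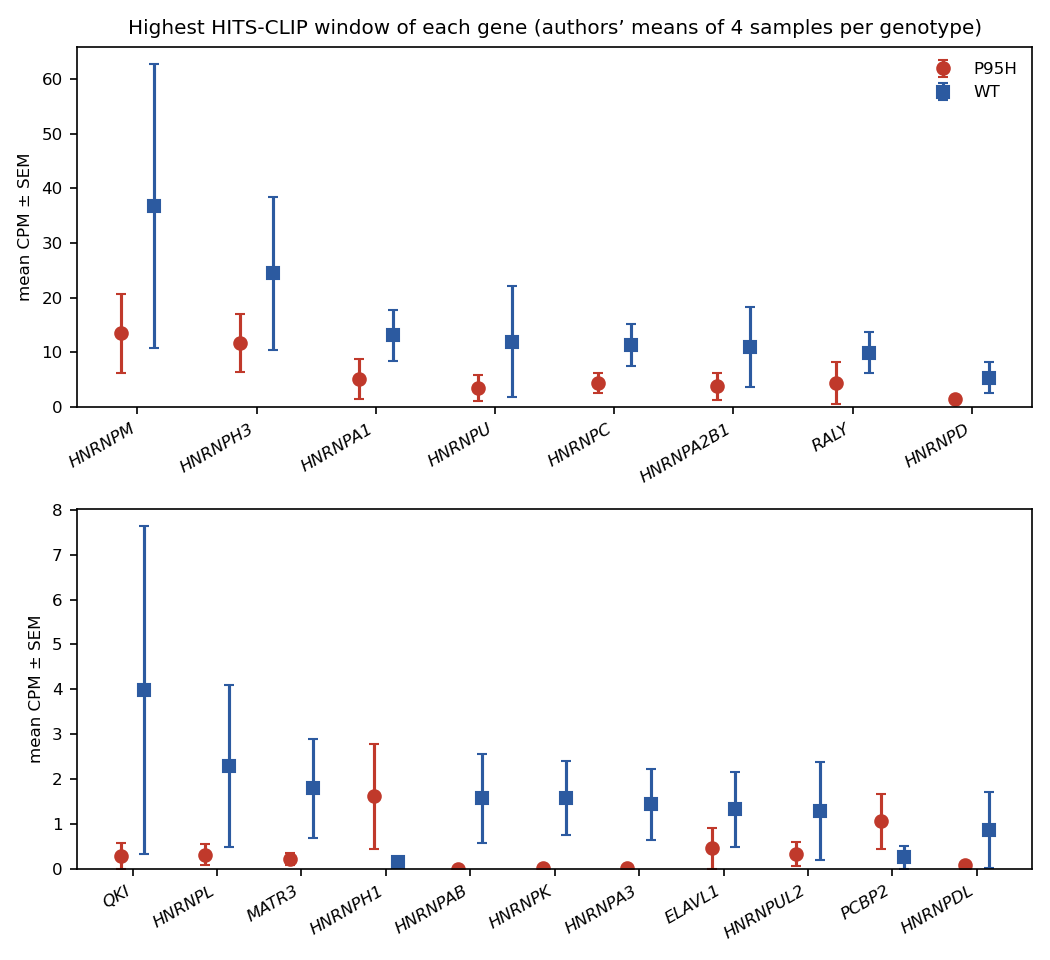
Mean CPM with its standard error (both from the authors' deposited table, 4 samples per genotype) in the highest window of each of the 19 genes, P95H left of WT, in 2 panels ordered by level. HNRNPM and HNRNPH3 have the highest WT means, 36.81 and 24.45 CPM, and HNRNPH1 and PCBP2 alone have the higher mean in P95H.

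HNRNPU (chr1:244851166-244864542, minus strand, GRCh38), a large protein that binds RNA and chromatin scaffolds, was split by position. Its 4 windows near the 5′ end, 462 to 469 bases into the gene, were lower in P95H, and the highest had 3.43 ± 2.3 CPM in P95H and 11.93 ± 10.12 CPM in WT in the authors' deposited table (log2 -1.89, adjusted p 0.000362). Another window 4184 bases in was lower too. The 5 windows from 5770 bases on, in 3 regions, were all higher, with log2 changes from 1.44 to 2.92 in the authors' deposited table. For the windows 5770 and 5773 bases in, the P95H error was 0.946 and 0.944 of the mean, so 1 sample could carry that signal. The overlapping pair 8403 and 8405 bases in had a ratio of 0.787. Another of the 5, annotated to a retained-intron transcript, was tighter. It had 0.98 ± 0.27 CPM in P95H and 0.36 ± 0.13 CPM in WT (log2 1.44, adjusted p 0.0279) in the authors' deposited table. It was the single member window in which the means differed by more than 2 combined standard errors. HNRNPUL2, a homologue of HNRNPU, had 5 lower windows and 1 higher, all of which share their positions with the read-through gene HNRNPUL2-BSCL2. MATR3, a nuclear matrix protein, had 1 lower window.

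Among the other regulators, QKI, a KH-domain protein that regulates splicing and circular RNA formation, had 2 overlapping lower windows 666 and 678 bases into the gene. The one with the higher level had 0.28 ± 0.28 CPM in P95H and 3.98 ± 3.66 CPM in WT (log2 -4.68, adjusted p 2.83e-09) in the authors' deposited table. ELAVL1, known as HuR for stabilising AU-rich mRNAs, had 2 higher windows and 1 lower. The lower one lies opposite the 5′ end of HNRNPM and shares its position with RP11-886P16.10.

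Near 5′ ends the members went one way. Within 1000 bases of the 5′ end of their gene lay 23 member windows, in 8 regions of HNRNPM, HNRNPU, HNRNPUL2, HNRNPD, QKI, HNRNPAB and ELAVL1, and 23 of 23 were lower in P95H. Over all genes longer than 5000 bases, 80.1% of 674 such windows were lower in the authors' deposited table, and of the 119 member windows further in, 83.2% were. ELAVL1 is placed here at chr19:7958579-8445041, a span that also overlaps RPS28, RAB11B, MARCH2 and HNRNPM, so its 5′ end rests on that annotation. Its 2 higher windows lie 93.2% of the way along that span. The ELAVL1 window counted here lies opposite HNRNPM windows at the same bases. The strand of the reads is uncertain there, so both may reflect the same site. The distance was chosen after the values were seen, and the 8 regions are too few to set these members apart from other genes.

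**Figure D3:**
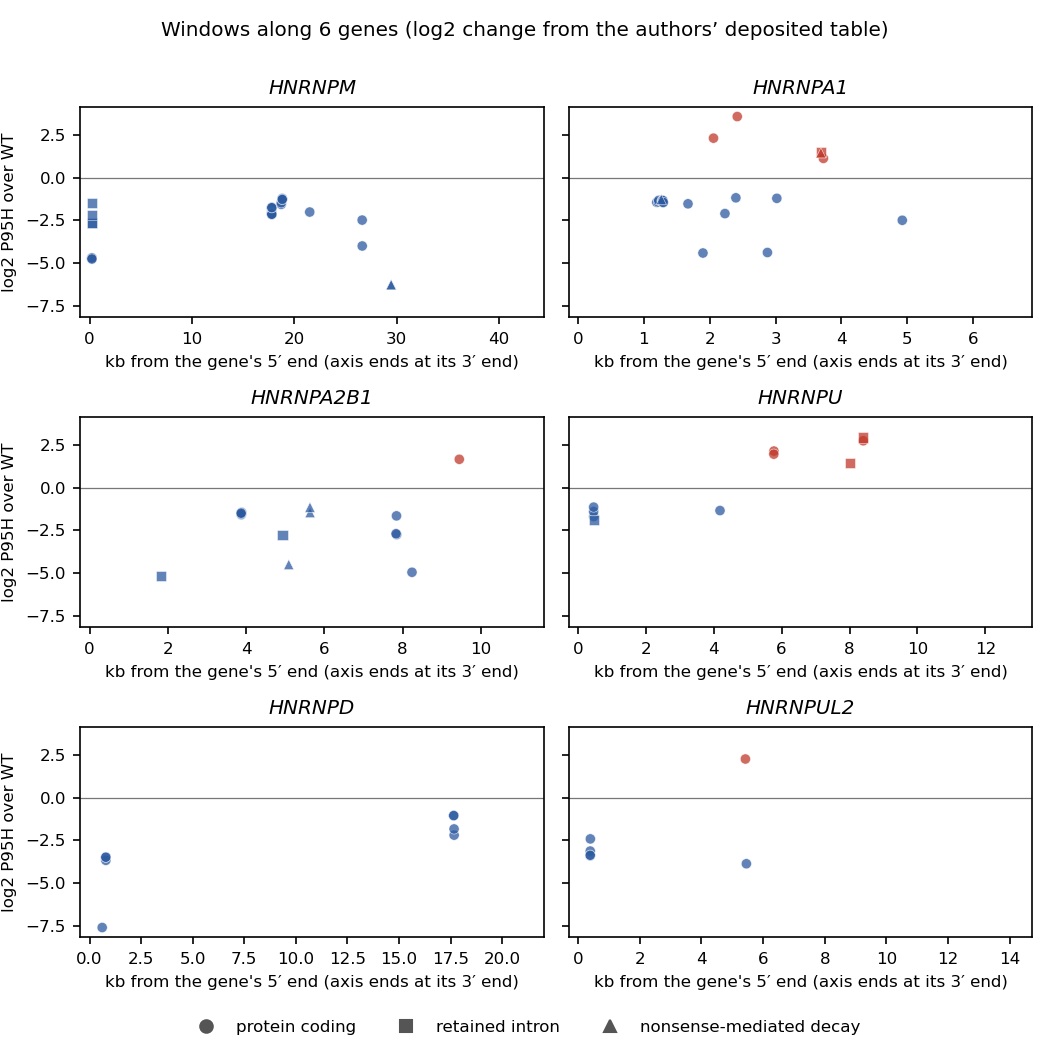
Log2 change (P95H over WT, vertical axis, from the authors' deposited table) of each window against its distance from the gene's 5′ end in kilobases, for 6 genes, with symbols for the annotated transcript class. In HNRNPU the windows near the 5′ end lie below 0 and those from 5770 bases on above it, while in HNRNPM every window lies below 0.

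By annotated transcript class the member windows were 73.2% protein-coding, against 62.6% in the whole table. Retained-intron transcripts, which keep an intron that other transcripts of the gene remove, took 20 windows (14.1%, against 8.38%), and 8 of these are RALY's. Transcripts annotated for nonsense-mediated decay took 9 (6.34%, against 4.0%), from HNRNPA2B1 (3), HNRNPM, HNRNPA1 and PCBP2 (2 each). Non-coding processed transcripts of coding genes took 9 (6.34%, against 5.51%), all HNRNPH3's. Lower windows made up 87.5% of the members' protein-coding windows (80.7% in the whole table), 80.0% of their retained-intron windows (73.9%) and 66.7% of their 9 nonsense-mediated decay windows (71.9%). The class names the transcript to which the authors assigned a window, and does not say whether the bases are exonic or intronic.

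The spread between the 4 samples of a genotype was wide. In the genotype with the higher mean, the standard error was at least 0.9 of the mean in 19 member windows (13.4%, against 21.8% of all windows), as happens when 1 of 4 samples holds nearly all of the reads. The median ratio of error to mean was 0.705. The means in the authors' deposited table differed by more than 1 combined standard error in 85 of 142 windows (59.9%, against 50.4%) and by more than 2 in 1 (0.704%, against 1.05%). Values per sample were not analysed here, so the authors' adjusted p could not be set against the samples themselves.

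The RNA of the same genes differed little between the genotypes. In RNA-seq, P95H against WT, 0 of 36 members passed an adjusted p under 0.05 in edgeR's quasi-likelihood test on group alone, where 0 of 22007 genes (0%) passed and 227 had an unadjusted p under 0.05. None of the 36 had an unadjusted p under 0.05, and DESeq2 called 0 members and 0 genes (100 unadjusted). The log2 changes ran from -0.15 (PTBP1) to 0.34 (PTBP2), 16 above 0 and 20 below. Their median was -0.004 for the members and 0.002 for all genes tested. The split by sign depended on the setting. With a stricter filter on low counts 25 members were above 0, without WT replicate 1 also 25, and without WT replicate 2 13. For all 36 the 95% interval of the change stayed within 2-fold in either direction, and for 35 within 1.5-fold, PTBP2 being the exception. In bulk RNA, fewer cells making a transcript and less of it per cell cannot be told apart. Levels of the 36 ranged from 21.4 CPM (MATR3) to 2296 CPM (HNRNPA1) per library, far above the depth limit.

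With the replicate number as a batch term, 84 of 22007 genes passed (0.382%), 41 higher in P95H (0.186%) and 43 lower (0.195%), and 1 member was among them. PTBP2 (chr1:96721665-96823738, plus strand, GRCh38), the polypyrimidine tract-binding protein best known from neurons, had 68.91 and 63.03 CPM in P95H replicates 1 and 2, 60.32 and 44.5 CPM in WT replicates 1 and 2 and 67.77 CPM in the library labelled uninduced. Both P95H libraries lay above both WT libraries, and WT replicate 2 was the lowest of all. The log2 change was 0.36 ± 0.08 (standard error) with edgeR's adjusted p of 0.0448 in the batch fit, and 0.34 ± 0.16 with an adjusted p of 0.9999 on group alone. Within replicate 1 P95H exceeded WT by 0.19 on the log2 scale and within replicate 2 by 0.50. Without WT replicate 2 the change on group alone was 0.13, and without WT replicate 1 it was 0.58, so the size depends on the WT libraries. Of the lineage markers, ITGB3, a megakaryocytic integrin, passed in the same fit, at 75.53 and 124 CPM in P95H and 113.7 and 185.3 CPM in WT, a log2 change of -0.62, while 0 of 7 erythroid genes did. Its part in the PTBP2 difference was not tested.

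PTBP1, the broadly expressed paralogue that represses exons flanked by CU-rich tracts, had 654.1 and 759.4 CPM in P95H, 733 and 848.2 CPM in WT and 795.6 CPM in the library labelled uninduced. The genotypes overlapped, since P95H replicate 2 exceeded WT replicate 1, but within each replicate number P95H was lower by 0.16 on the log2 scale. The batch fit gave -0.15 ± 0.07 with an unadjusted p of 0.0492 and edgeR's adjusted p of 0.589, so it did not pass. On group alone the change was also -0.15, and it lay between -0.27 without P95H replicate 2 and -0.05 without WT replicate 2 or P95H replicate 1, with -0.26 without WT replicate 1, so its size depends on single libraries. HNRNPH3 had 234.3 and 227.5 CPM in P95H and 214.6 and 214.5 CPM in WT, with 196.7 CPM in the library labelled uninduced. The genotypes did not overlap, yet the change of 0.12 ± 0.10 had edgeR's adjusted p of 0.9999, and 0.7327 with the batch term. RUFY2, which overlaps it on the other strand, has 5.69% of its counts. PCBP1, a poly(C)-binding protein, had 49.67 and 50.41 CPM in P95H and 59.75 and 50.26 CPM in WT, so that WT replicate 1 alone stood apart. Its antisense neighbour PCBP1-AS1 has 124% of its counts, and without knowledge of strand their reads cannot be told apart.

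**Figure D4:**
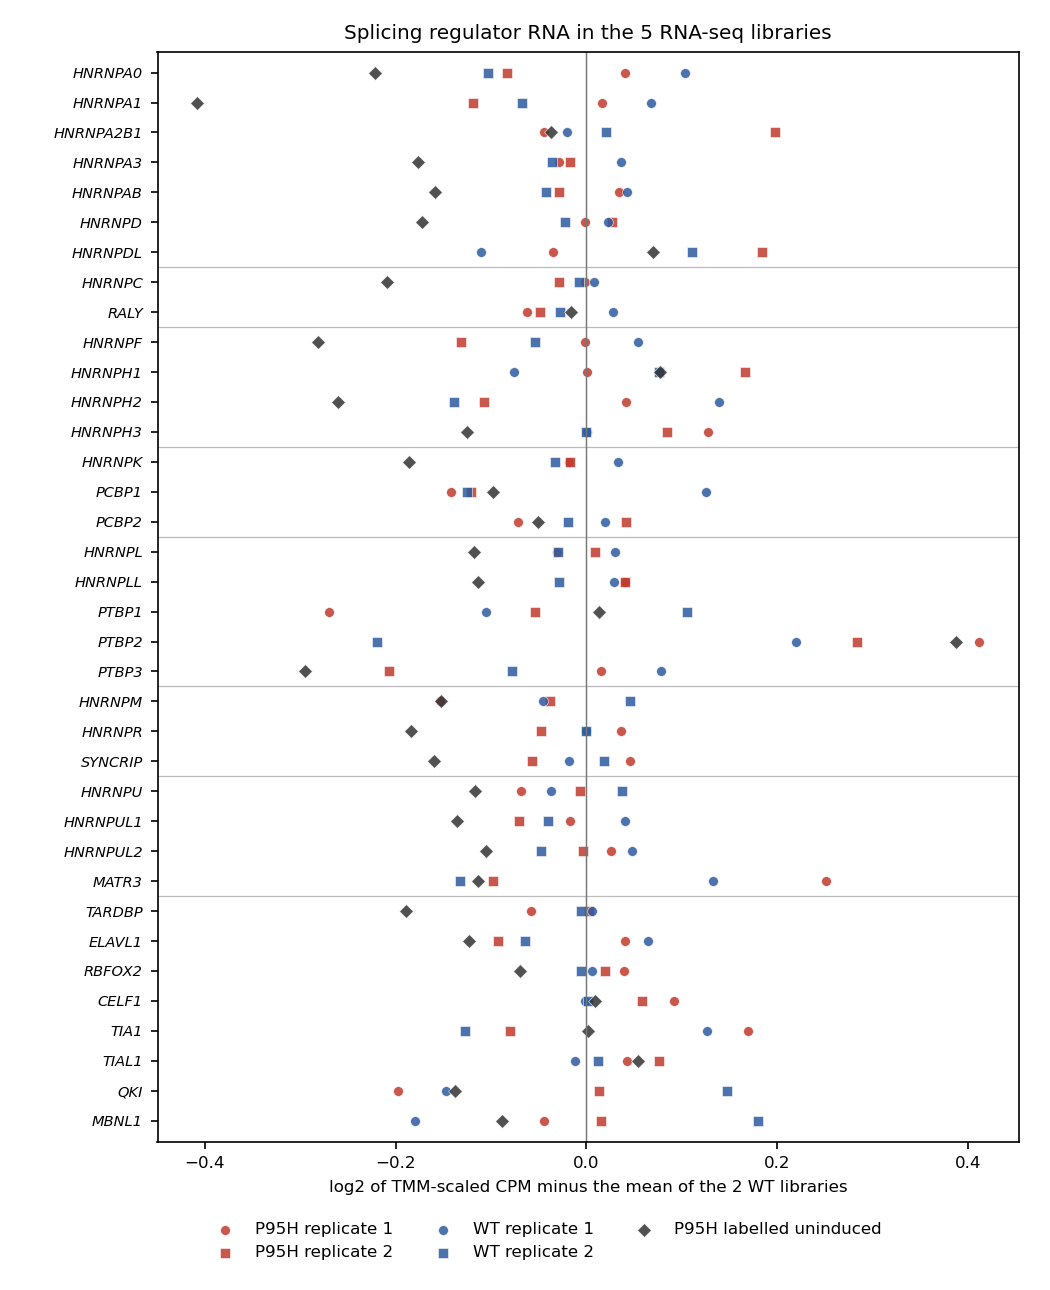
Log2 of TMM-scaled CPM of each of the 36 genes in each RNA-seq library, less the mean of both WT libraries (horizontal axis), with genes in rows and grouped by family. P95H and WT points intermingle in most rows, and PTBP2 has P95H points at the right and its lowest point in WT replicate 2.

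The libraries were also compared by whether the genotypes overlapped. P95H lay wholly above WT in 6 of 36 members (HNRNPH3, HNRNPLL, PTBP2, RBFOX2, CELF1 and TIAL1) and wholly below in 1 (RALY), where 12.8% of all genes lay above and 11.9% below. With DESeq2's size factors these became 6 and 3. Among the 7058 genes at or above the mean level of the lowest member, 309 lay above and 1276 below. Genes of this level thus tend to lie lower in P95H under TMM scaling. The members did not share this lean, and the difference was not tested. Within both replicate numbers P95H was higher in 13.3% of the 7058 genes and lower in 42.2%, beside 27.8% and 30.6% of the members. The P95H-WT difference had the same sign in both replicate numbers for 21 of 36 members (58.3%), against 53.9% of all genes. Its median size was 0.0614 in replicate 1 and 0.0482 in replicate 2 on the log2 scale. Between the replicates of one genotype the median difference was larger, 0.0734 in P95H and 0.0827 in WT, so the genotypes differed by less than the replicates did. The same held over all genes tested. Their medians were 0.181 and 0.182 between the genotypes in replicates 1 and 2, and 0.26 in P95H and 0.29 in WT between replicates.

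**Figure D5:**
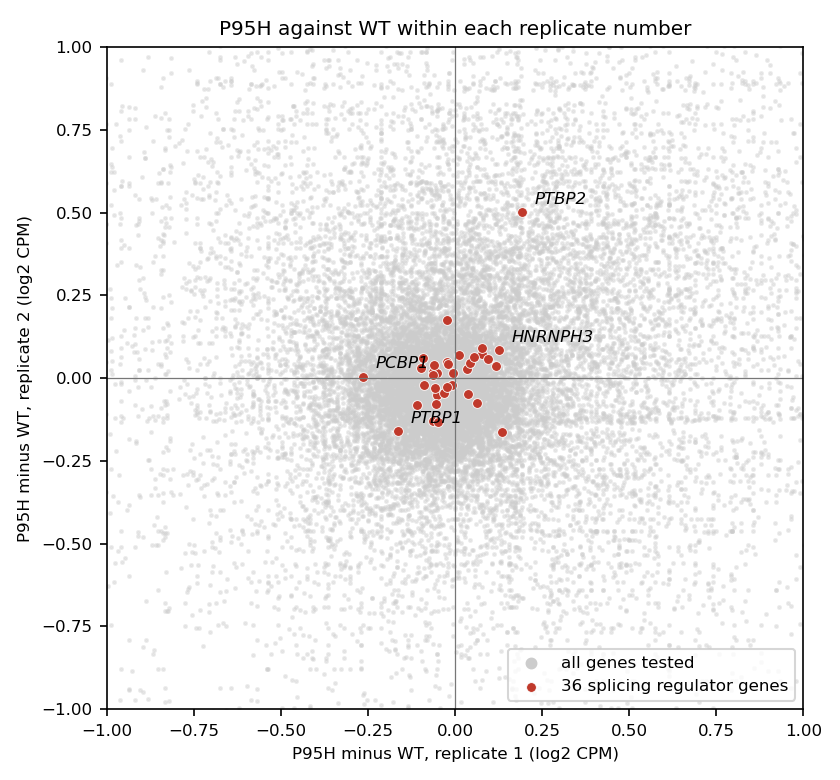
P95H minus WT in log2 CPM within replicate 1 (horizontal axis) and within replicate 2 (vertical axis) for the 36 genes, over all genes tested in grey, with genes beyond the axes not drawn. The members crowd around 0 except PTBP2, at 0.19 and 0.50.

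Beside their binding, the RNA levels of the bound genes hardly moved. The 10 members with only lower windows had RNA changes from -0.09 to 0.12 on the log2 scale (P95H against WT, group alone), the 7 with windows in both directions -0.04 to 0.09, and HNRNPH1 and PCBP2, with only higher windows, 0.09 and -0.004. HNRNPM, with the most windows, had 448 and 485.5 CPM in P95H, 483 and 514.2 CPM in WT and 448.4 CPM in the library labelled uninduced, a change of -0.08 ± 0.11 (edgeR's adjusted p 0.9999). The genotypes overlapped, since P95H replicate 2 exceeded WT replicate 1. HNRNPA1 had a change of -0.04 ± 0.14 with the same adjusted p. HNRNPM overlaps ELAVL1 by 275 bases on the opposite strand. RALY had 136 and 137.3 CPM in P95H and 144.7 and 139.3 CPM in WT, a change of -0.04 ± 0.10. EIF2S2 overlaps 20011 bases of RALY on the other strand and has 196% of its counts. Without knowledge of strand, reads in that overlap cannot be told apart.

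Against the library labelled uninduced, most members were somewhat higher in P95H, without passing the test on group alone. There 32 of 36 log2 changes were above 0, with a median of 0.11 against 0.0016 for all genes, but 0 of 36 members and 0 of 23970 genes (0%) passed edgeR's adjusted p under 0.05. Unadjusted p-values under 0.05 were found for 818 genes and 0 members, and DESeq2 called 8 genes and 0 members. With a single library on that side, its own spread is assumed to equal that of the replicated groups. In 21 of 36 members (58.3%) all 4 libraries given doxycycline lay above it, against 21.4% of all genes and 34.5% of genes at or above the lowest member's mean level. In none did all 4 lie below it, against 25.9% of all genes. With DESeq2's size factors 25 members lay above. These counts hold for WT as much as for P95H and share the same single library.

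HNRNPA1 gave the largest difference. It had 2216 and 2018 CPM in P95H, 2296 and 2091 CPM in WT and 1651 CPM in the library labelled uninduced, which was thus the lowest of the 5. The change in P95H was 0.36 ± 0.16 with edgeR's adjusted p of 0.9724 on group alone. Placed in the batch of replicate 2, to which its mitochondrial share is nearest, it was 0.29 ± 0.09 with an adjusted p of 0.05544, just short of the threshold, and placed with replicate 1 it was 0.42 ± 0.09 with 0.000164. In the first placing 866 of 23970 genes (3.61%) passed, 0.897% higher in P95H and 2.72% lower, and 0 members. In the second 3685 genes (15.4%) passed, 4.94% higher in P95H and 10.4% lower, and 6 members did.

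Those 6 were HNRNPA1, HNRNPA0, HNRNPF, HNRNPH2 and PTBP3, all higher in P95H, and PTBP1, lower. HNRNPF, a binder of G runs, had 312.3 and 285.5 CPM in P95H, 324.6 and 301.3 CPM in WT and 257.4 CPM in the library labelled uninduced. Its log2 change against the last was 0.27 ± 0.10 (edgeR's adjusted p 0.03904) with replicate 1 and 0.16 ± 0.10 (0.4843) with replicate 2. HNRNPA0 had 309.7 and 284.2 CPM in P95H, 323.3 and 280.4 CPM in WT and 258.2 CPM in the library labelled uninduced. HNRNPH2 had 53.09 and 47.86 CPM in P95H, 56.79 and 46.83 CPM in WT and 43.07 CPM in the library labelled uninduced. PTBP3 had 287.3 and 246.4 CPM in P95H, 300.1 and 269.4 CPM in WT and 231.8 CPM in the library labelled uninduced. In each of these the library labelled uninduced was the lowest of the 5, and the batch in which it is placed decided whether the gene passed. For PTBP1 the change was -0.28 ± 0.10 (edgeR's adjusted p 0.02548) with replicate 1 and -0.07 ± 0.10 (0.8175) with replicate 2.

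On group alone the 4 smallest unadjusted p-values were those of HNRNPA1, HNRNPH3, HNRNPF and HNRNPC. HNRNPH3 had a change of 0.23 ± 0.12 against the library labelled uninduced, with edgeR's adjusted p of 0.9724. HNRNPC had 785.5 and 770.9 CPM in P95H, 790.7 and 782.1 CPM in WT and 680.6 CPM in the library labelled uninduced, a change of 0.19 ± 0.14 with the same adjusted p. ITGA2B, the megakaryocytic integrin, moved with this comparison: it had 548.7 and 588.8 CPM in P95H, 527 and 482.3 CPM in WT and 810 CPM in the library labelled uninduced. Of 7 erythroid and 4 megakaryocytic genes, HBG2 passed higher and ITGA2B lower in P95H with the replicate 2 placing, while 6 and 3 passed lower with the replicate 1 placing. What part the state of the cells or the batch has in the members' higher levels was not tested.

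Other splicing factors are given for comparison, with no test of a difference between the lists. Of 49 further RNA-binding splicing regulators 40 could be tested for P95H against WT on group alone, and of 11 SR proteins all 11. In neither list did a gene pass there or in the batch fit, with medians of 0.02 and 0.08 on the log2 scale on group alone. Against the library labelled uninduced, placed with replicate 2, CELF2 and DDX5 of the first list and SRSF6, SRSF10 and TRA2B of the second passed, all higher in P95H. SRSF10 had 371.3 and 420.5 CPM in P95H and 333.8 CPM in the library labelled uninduced, a change of 0.36 with edgeR's adjusted p of 0.01183. Placed with replicate 1, 1 of the 40 passed higher (MBNL2) and 3 lower (DAZAP1, SRRM2 and DDX17), and TRA2A of the SR proteins passed higher. In the authors' deposited table the further regulators had 139 windows in 21 genes, 77.7% lower in P95H, and the SR proteins had 17 windows in 8 genes, 70.6% lower.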

How the data were processed

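HITS-CLIP was measured in 4 P95H and 4 WT samples and RNA-seq in 2 P95H, 2 WT and 1 P95H sample labelled uninduced, with groups and replicate numbers from the labels. Per the submitters' processing notes, TopHat2 2.0.14, STAR 2.5.3a and edgeR were used, in roles not stated, with the build GRCh38.p3. No source used here gives the counting program, its use of strand or the annotation release. RNA-seq values are raw counts per gene as the authors deposited them. For HITS-CLIP, per the file headers, the authors' deposited table gives a log2 change (P95H over WT), an adjusted p-value (FDR), and the mean CPM per genotype with its standard error. The total behind these CPM and the method of adjustment are not stated. The table has 8324 entries at 8100 positions, and each position was used once.

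RNA-seq counts were tested in edgeR 4.0.16 under R 4.3.3 (filterByExpr, TMM factors 0.958 to 1.04, quasi-likelihood test, two-sided, Benjamini-Hochberg adjusted p under 0.05), and with DESeq2 1.42.0 as an alternative. The fits ran on all genes. P95H against WT used 4 libraries and P95H against the library labelled uninduced used 5. CPM printed for RNA-seq are computed here from the counts and scaled by TMM, with a prior count of 2 before logs were taken. The test scripts were tested on simulated data. Python 3.11.15, pandas 2.3.3 and scipy 1.17.1 handled windows. Windows overlapping by at least 1 base on the same strand with the same direction were merged into regions. The 5′ ends are the gene ends of the count table. Same-numbered libraries deviated together: across all genes tested, replicate 2 minus replicate 1 correlated at 0.474 between genotypes. The correlation was 0.745 over the 36 members and 0.761 over the 7058 genes at or above the lowest member's mean level. With 2 numbers and nothing in the labels on a shared day, this shared deviation is a hint from the data. Promoter sequence is RefSeq's, GRCh38.p14.

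Members and lists were chosen with earlier results of these data known. Members are named in full if they pass in either fit or are among the 4 with the smallest p. For HITS-CLIP these are the 8 members with the most windows and the 4 largest rises and falls. Other members were named after their values were seen.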

Additional observations from a re-analysis of the deposited data

How the results depend on the processing

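For P95H against WT, 0 members passed on group alone, with DESeq2's size factors, with no filter or a stricter filter on low counts, with the DESeq2 test and without each library in turn (0 to 0). With the replicate block 1 member passed, PTBP2. Leaving out a library moved PCBP1 between -0.255 and 0.00217 on the log2 scale, the upper value without WT replicate 1, and SRSF2 between -0.0558 without P95H replicate 2 and 0.126 without P95H replicate 1, with -0.015 without WT replicate 1. For P95H against the library labelled uninduced, 0 members passed under each of those settings except the replicate block with that library placed with replicate 1, where 6 did. The cause of these shifts was not tested. The labels do not say what a replicate number shares, so the pairing rests on the data. The number of member windows was 63 at a change of at least 4-fold and 65 after merging, instead of 142, by construction, and the share lower in P95H after merging was 76.9% instead of 85.9%. The search for CCNG and GGNG in widened windows or merged regions was not run, since no genome sequence was at hand. Depth did not limit the RNA values of these genes, whereas in 19 of the 142 member windows the HITS-CLIP standard error was at least 0.9 of the higher mean.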

Other observations

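Copies of 4 of these genes elsewhere in the genome carried 71 further windows. In the authors' deposited table the 16 copies of HNRNPA1 had 63 windows, 48 lower and 15 higher in P95H, with highest means of 5.24 CPM in P95H and 13.2 CPM in WT, next to 5.05 and 13.11 CPM in HNRNPA1 itself. HNRNPCP2 had 5 windows, all lower, with highest means of 4.39 CPM in P95H and 11.15 CPM in WT in the authors' deposited table, where HNRNPC had 4.27 and 11.27 CPM. HNRNPLP2 had 1 window at 0.31 CPM in P95H and 2.29 CPM in WT in the authors' deposited table, the means of a window of HNRNPL. For HNRNPA3, 0 of 5 windows had a near-equal counterpart in its 2 named copies. The values show which windows are counted in more than 1 place, and the sources used here do not say how reads that fit several places were assigned.

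MATR3 and QKI differed more between the replicates of a genotype than between the genotypes, as the medians over all genes tested did too. MATR3 had 27.9 and 21.92 CPM in P95H replicates 1 and 2, 25.7 and 21.4 CPM in WT replicates 1 and 2 and 21.68 CPM in the library labelled uninduced. QKI had 328.8 and 380.6 CPM in P95H, 340.5 and 417.7 CPM in WT and 342.7 CPM in the library labelled uninduced. The library labelled uninduced was thus near the replicate 2 libraries for MATR3 and near the replicate 1 libraries for QKI.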
